A study of Mus musculus with 2 samples.

Results

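Hypoxic CT26 tumour cells were taken as the barcodes with the strongest signal of 5 oxygen-regulated genes among barcodes that carry tumour RNA. CT26 is a mouse colon carcinoma line, here implanted below the skin in BALB/c mice. A library came from tumour of mice dosed with WQ-2101, an inhibitor of the serine synthesis enzyme PHGDH according to the series title, at 20 mg/kg into the peritoneum every day. Another came from tumour of mice given vehicle. Mice were 5 weeks old when assigned and of wild type genotype, dosing began near 100 mm³ of tumour, and tissue was taken 17 days after implantation for droplet sequencing of 3′ ends. Each group was 1 library, both are labelled as the same batch, and how many mice fed each library is not stated. No measure of variation between animals exists, so no test was made, and every interval is an exact 95% interval that covers counting error only.

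A barcode entered the tumour gate with at least 3000 UMIs (counted molecules), at most 15% mitochondrial UMIs, at least 3 UMIs and 200 CPM (UMIs per 1000000) of Hmga2, an oncofetal chromatin protein, and 0 UMIs of Ptprc, the pan-leukocyte gene. The score was the mean of ln(1 + counts per 10000) of Ankrd37, Pdk1, Bnip3, Ndrg1 and Egln3, and the top 8% of gated barcodes over both libraries were the members. This gave 1060 members of 13246 gated barcodes, out of 32516 barcodes in all. There were 864 WQ-2101 members and 196 Vehicle members, set against 6599 other WQ-2101 and 5587 other Vehicle barcodes of the gate.

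Cells read oxygen through prolyl hydroxylases, which use it to mark the HIF alpha subunits for destruction by way of the VHL protein. When oxygen runs short, HIF alpha persists, pairs with ARNT and binds hypoxia response elements, whose core reads ACGTG or GCGTG. Its targets bring in glucose, speed glycolysis, hold pyruvate back from mitochondria and call for new vessels. In solid tumours such a state is known from areas far from blood vessels.

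The promoters of the genes that chose the members are shown because that core can be read in them. Windows run from 250 bases before to 50 bases after the RefSeq start in GRCm38.p6, printed 5′ to 3′ along the gene's strand, with every ACGTG or GCGTG on either strand in capitals (CACGT or CACGC where it lies on the opposite strand). No window was held for Ndrg1. The windows lie at chr7:138909457-138909756 (Bnip3, minus strand), chr8:45999801-46000100 (Ankrd37, minus strand), chr2:71872974-71873273 (Pdk1, plus strand) and chr12:54203825-54204124 (Egln3, minus strand).
Bnip3: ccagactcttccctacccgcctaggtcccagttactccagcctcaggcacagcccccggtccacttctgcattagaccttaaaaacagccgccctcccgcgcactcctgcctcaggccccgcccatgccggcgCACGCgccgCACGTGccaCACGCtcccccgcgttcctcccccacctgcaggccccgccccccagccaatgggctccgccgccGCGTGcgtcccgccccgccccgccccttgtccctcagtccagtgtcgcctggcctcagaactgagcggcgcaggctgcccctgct
Ankrd37: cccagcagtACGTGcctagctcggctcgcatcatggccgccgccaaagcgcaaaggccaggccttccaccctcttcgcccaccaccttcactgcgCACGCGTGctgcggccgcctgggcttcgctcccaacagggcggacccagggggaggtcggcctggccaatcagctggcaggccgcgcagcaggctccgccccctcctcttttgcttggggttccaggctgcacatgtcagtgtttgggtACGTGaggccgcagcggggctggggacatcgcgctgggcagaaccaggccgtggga
Pdk1: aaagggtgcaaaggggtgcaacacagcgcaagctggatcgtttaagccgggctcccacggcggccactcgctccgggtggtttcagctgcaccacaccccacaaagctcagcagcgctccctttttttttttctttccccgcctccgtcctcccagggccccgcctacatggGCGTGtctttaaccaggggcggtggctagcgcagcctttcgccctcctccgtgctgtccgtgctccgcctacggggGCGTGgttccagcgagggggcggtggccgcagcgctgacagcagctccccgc
Egln3: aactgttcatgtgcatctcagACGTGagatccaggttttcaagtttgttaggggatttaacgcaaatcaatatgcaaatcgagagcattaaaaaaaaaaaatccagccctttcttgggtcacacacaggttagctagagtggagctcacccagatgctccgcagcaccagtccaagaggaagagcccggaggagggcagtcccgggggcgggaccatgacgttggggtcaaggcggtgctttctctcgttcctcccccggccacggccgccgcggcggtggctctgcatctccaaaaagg
The Bnip3 window held 5 matches, of which a pair is the palindrome CACGTG read on both strands, at positions -108 and -107 from the start. Ankrd37 held 4, Pdk1 held 2, the nearest of them at position -2, and Egln3 held 1. A second RefSeq start of Pdk1 gave a window with 0 matches. Under GENCODE, the Ankrd37 gene (chr8:45996902-46005707) begins upstream of the RefSeq start used for its window. Such letters are common. They were in 43.8% of all 32851 windows and in 71.8% of 6835 tested genes with a window. They were in 33 of the 36 (91.7%) hypoxia genes outside the rule that have a window. With 3 or more matches the shares were 38.9% of those 36, against 20.8% of tested genes. Genes called higher in members of both libraries, at the threshold given below, had a match in 76.1% and 3 or more in 31.3%. Those called lower in both had 73.6% and 23.3%, so for any match both sets lay near the tested genes. The share of 43.8% counts windows, and the others count genes. A match describes the letters and not binding.

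Members made up 11.6% of gated WQ-2101 barcodes (10.9 to 12.3) and 3.39% of gated Vehicle barcodes (2.94 to 3.89), a ratio of 3.42 (2.92 to 4.01). The cut was set on both libraries pooled, so it fixed the total and not the split. The rest of the gate lay apart as well, with a median score of 0.491 in the other WQ-2101 barcodes and 0.346 in the other Vehicle barcodes. Gated barcodes were shallower under WQ-2101, with a median of 13475 UMIs against 16694 UMIs under vehicle. After every gated barcode was thinned to 3000 UMIs and scored again, members were 11.1% of WQ-2101 (10.4 to 11.8) and 3.99% of Vehicle barcodes (3.50 to 4.53), a ratio of 2.78. Thinning changed which barcodes were chosen, since 510 of 829 WQ-2101 and 115 of 231 Vehicle members were also members on all UMIs.

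The share was higher under WQ-2101 at every depth. It was 6.04% against 2.45% in Vehicle from 3000 to 6000 UMIs, where the intervals overlapped and the Vehicle share rested on 4 members. It was 16.6% against 5.96% from 6000 to 12000 UMIs, and 11.3% against 3.46% from 12000 to 24000 UMIs. Above that it was 4.71% against 0.908%. Within both libraries, the share was greatest between 6000 and 12000 UMIs.

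**Figure D1:**
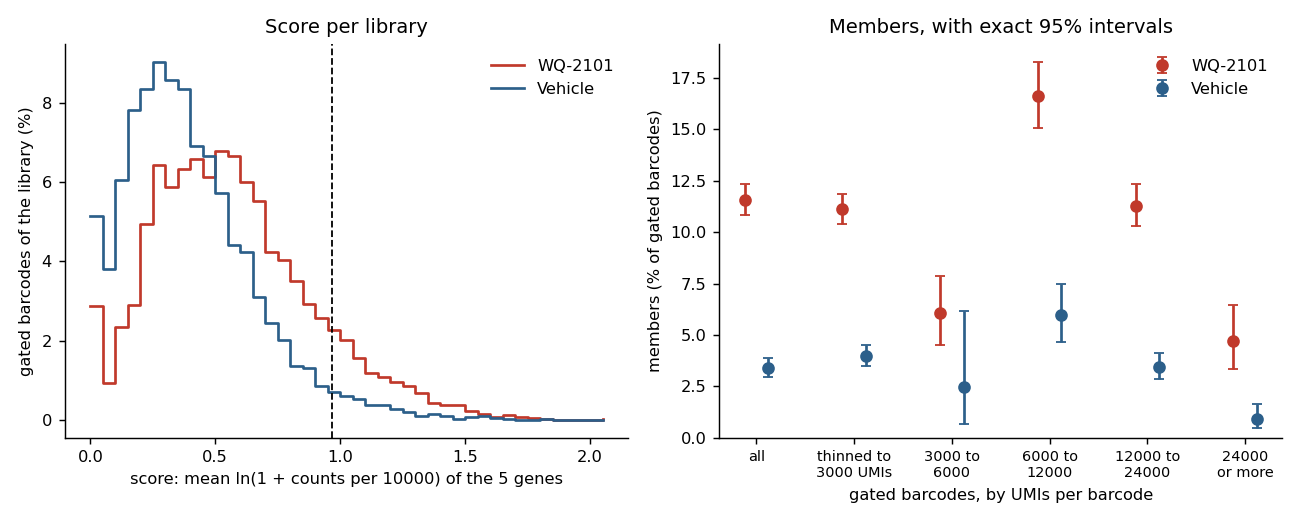
The left panel plots the share of gated barcodes (%) of each library over the 5-gene score, with the cut as a dashed line; the right panel plots members as % of gated barcodes with exact 95% intervals, for all barcodes, after thinning and by UMIs per barcode. WQ-2101 lies above Vehicle in each pair of points, at 11.6% against 3.39% over all barcodes, and only the intervals from 3000 to 6000 UMIs overlap.

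The score has no gap at the cut. The lowest member scored 0.969 and the highest barcode outside scored 0.968, and 880 gated barcodes lay within 0.1 of the cut. The 100 barcodes just inside held 77 from WQ-2101 and 23 from Vehicle, and the 100 just outside held 76 and 24. Bnip3 was at 401 CPM (summed over the barcodes) just inside and 383 CPM just outside, and Ankrd37 at 77.8 and 90.8 CPM. Members are the upper range of a continuous score. The median score was 1.13 in WQ-2101 members and 1.12 in Vehicle members.

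Members had fewer UMIs than the other barcodes of their library, with medians of 12273.5 against 13676 in WQ-2101 and 13332 against 16810.0 in Vehicle. They also had fewer genes per barcode, 3784 against 4139 in WQ-2101 and 3900.0 against 4642 in Vehicle. Mitochondrial UMIs were a median 1.76% of WQ-2101 members against 1.94% of the other barcodes, and 1.57% of Vehicle members against 1.82%. Scrublet, a doublet caller whose calls were left in, marked 17 WQ-2101 members (1.97%, against 1.77% of the others) and 1 Vehicle member (0.51%, against 1.52%). The libraries shared 10 gated barcode sequences, and none was a member in both libraries.

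The genes of the rule differ by construction, and their values are given as a description. Bnip3, a receptor for the removal of mitochondria, had 501 CPM in WQ-2101 members against 133 CPM in the other WQ-2101 barcodes, and 538 CPM in Vehicle members against 85.4 CPM in the other Vehicle barcodes. Ndrg1, a stress-induced gene that lies at chr15:66929318-66969640 in GRCm38, had 772 CPM in WQ-2101 members against 287 CPM in the other WQ-2101 barcodes, and 738 CPM in Vehicle members against 208 CPM in the other Vehicle barcodes. Ankrd37, an ankyrin repeat protein induced by low oxygen, had 159 CPM in WQ-2101 members against 28.6 CPM in the other WQ-2101 barcodes, and 149.6 CPM in Vehicle members against 12.6 CPM in the other Vehicle barcodes. All 3 were about level between the members of the libraries, while the other barcodes were higher under WQ-2101. Pdk1, the kinase that shuts pyruvate dehydrogenase, had 105 CPM in WQ-2101 members against 35.6 CPM in the other WQ-2101 barcodes, and 95.6 CPM in Vehicle members against 18.8 CPM in the other Vehicle barcodes. Egln3, a HIF prolyl hydroxylase that HIF itself induces, had 116 CPM in WQ-2101 members against 25.2 CPM in the other WQ-2101 barcodes, and 135 CPM in Vehicle members against 20.7 CPM in the other Vehicle barcodes. A UMI of each of the 5 genes was present in 43.3% of WQ-2101 members and 37.8% of Vehicle members, against 3.77% and 1.75% of the other barcodes.

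Leukocyte barcodes (Ptprc at 2 or more UMIs, Hmga2 at 0) numbered 1997 in WQ-2101 and 2635 in Vehicle. They carry UMIs of these genes too, and free RNA was not estimated apart from their own, so they set no floor of it. Bnip3 was at 157 CPM in WQ-2101 and 127 CPM in Vehicle leukocyte barcodes, above the other gated barcodes of each library. Egln3 lay above them as well, whereas Ndrg1, at 180 CPM in WQ-2101 and 138 CPM in Vehicle, lay below them. Ankrd37 and Pdk1 were about level with the other gated barcodes in WQ-2101 and above them in Vehicle. When each rule gene was left out of the score in turn and members were chosen by the other 4, the left-out gene was still higher in members. The ratio for Ankrd37 was 3.62 in WQ-2101 and 7.55 in Vehicle, and for Bnip3 2.79 and 5.02. Egln3 gave 3.10 and 4.62, Pdk1 2.11 and 3.47, and Ndrg1 2.01 and 2.64.

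The label was checked on 50 further HIF-regulated genes that the rule did not use. Of these, 36 passed a mean of 10 CPM over the 4 sums (members and other barcodes of each library) and were compared as log2 ratios of CPM + 5. A gene was called at a ratio of 1.5 or more either way. Zfp395 passed the minimum only through its level in members, and it was called in neither library. In WQ-2101, 18 of 36 were called higher in members and 0 lower, where 1.17% of 8538 tested genes were called higher and 2.34% lower. In Vehicle, 23 of 36 were called higher and 0 lower, where 2.18% were called higher and 6.23% lower. The median over the list was 0.59 in WQ-2101 and 0.79 in Vehicle, beside -0.03 and -0.06 over all tested genes. All of these genes come from the same cells as the score, so the counts describe the cells and do not test them.

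**Figure D2:**
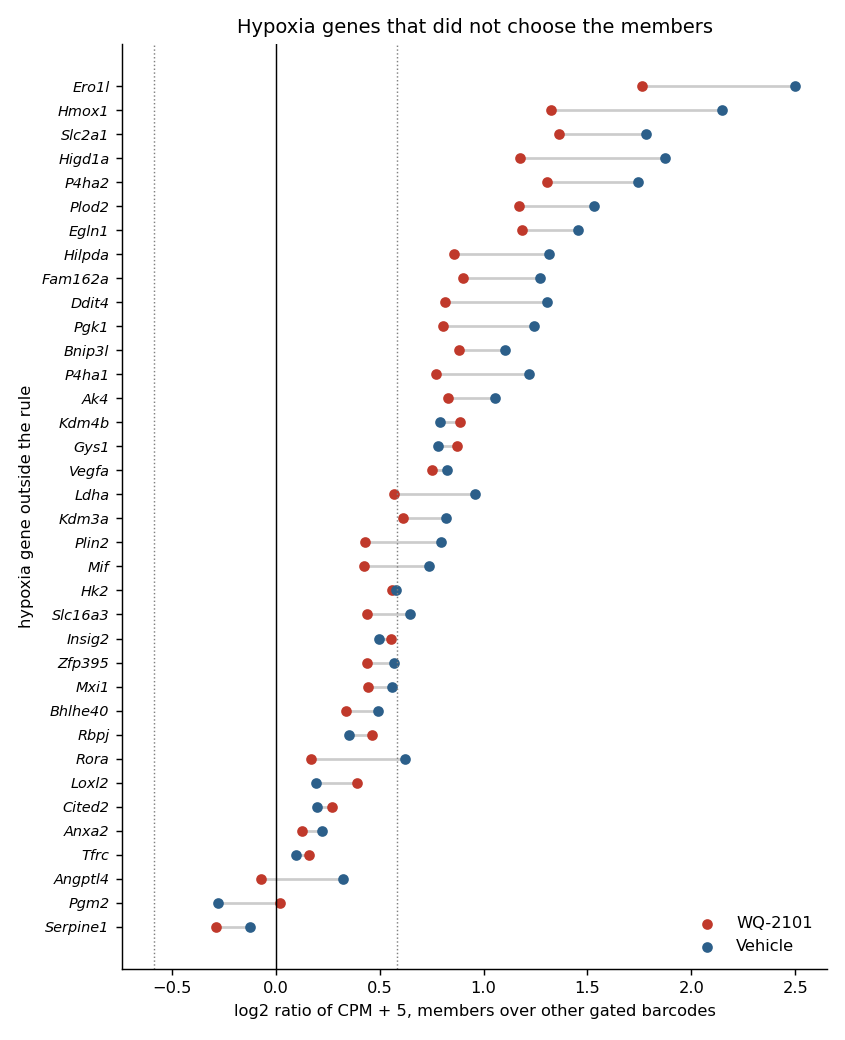
The plot gives, for each of the 36 tested hypoxia genes outside the rule, the log2 ratio of CPM + 5 in members over the other gated barcodes of the same library, with dotted lines at a ratio of 1.5 either way. Ero1l stands highest at 1.76 in WQ-2101 and 2.50 in Vehicle, 34 of 36 genes lie above 0 in each library, and for most genes the Vehicle point lies to the right.

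Ero1l, the oxidase that drives disulfide formation in the endoplasmic reticulum, led this list. It had 314 CPM in WQ-2101 members against 89.2 CPM in the other WQ-2101 barcodes, and 362 CPM in Vehicle members against 59.8 CPM in the other Vehicle barcodes. The ratio was 3.52 (3.39 to 3.66) in WQ-2101 and 6.05 (5.66 to 6.46) in Vehicle, and members of both libraries lay above leukocyte barcodes (165 CPM in WQ-2101 and 125 CPM in Vehicle). A UMI of Ero1l was present in 86.5% of WQ-2101 members and 86.2% of Vehicle members, against 60.1% and 55.4% of the other barcodes, and 49.3% and 46.0% of leukocyte barcodes. On barcodes thinned to 3000 UMIs, the shares were 52.4% and 50% of members against 21.9% and 16.3% of the others.

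Slc2a1, the glucose transporter GLUT1, had 243 CPM in WQ-2101 members against 91.3 CPM in the other WQ-2101 barcodes, and 280.5 CPM in Vehicle members against 77.9 CPM in the other Vehicle barcodes. Pgk1, a glycolytic kinase, had 1288 CPM in WQ-2101 members against 736 CPM in the other WQ-2101 barcodes, and 1238 CPM in Vehicle members against 520.4 CPM in the other Vehicle barcodes. The ratio for Slc2a1 was 2.66 (2.55 to 2.78) in WQ-2101 and 3.6 (3.34 to 3.87) in Vehicle. For Pgk1 it was 1.75 (1.72 to 1.78) and 2.38 (2.3 to 2.46), so both were larger in Vehicle. Of 17 tested glycolysis genes, several of which are also on the hypoxia list, 7 were called higher in WQ-2101 members and 13 in Vehicle members, and 0 were called lower. The median was 0.56 in WQ-2101 and 0.81 in Vehicle. With each barcode thinned to 3000 UMIs and members chosen again, 4 were called higher in WQ-2101 and 9 in Vehicle. Aldoa, an aldolase, had log2 ratios of 0.82 in WQ-2101 and 1.33 in Vehicle, and Gpi1, which turns glucose 6-phosphate into fructose 6-phosphate, 0.89 and 1.39. Ldha, which makes lactate from pyruvate, was called in Vehicle alone, at 0.96 against 0.57 in WQ-2101, just under the threshold. Glycogen enzymes were called in both libraries at Gbe1, Gys1 and Pgm1, 3 of 6 tested, with Pgm1, a phosphoglucomutase, at 1.00 and 1.26.

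Collagen hydroxylases need oxygen and are known HIF targets. P4ha2, a prolyl hydroxylase, had 133 CPM in WQ-2101 members against 50.8 CPM in the other WQ-2101 barcodes, and 115 CPM in Vehicle members against 30.8 CPM in the other Vehicle barcodes. Plod2, a lysyl hydroxylase, had 226 CPM in WQ-2101 members against 97.7 CPM in the other WQ-2101 barcodes, and 223 CPM in Vehicle members against 73.6 CPM in the other Vehicle barcodes. These and P4ha1, with log2 ratios of 0.77 in WQ-2101 and 1.22 in Vehicle, were the only 3 of 18 tested genes of collagen modification and matrix called higher in each library. Col1a1, a chain of type I collagen, went the other way at -0.64 and -0.89, so the enzymes were higher while that substrate was lower.

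The feedback hydroxylase of the pathway differed more between members and others than the core factors did. Egln1, the main HIF prolyl hydroxylase, had 262 CPM in WQ-2101 members against 112 CPM in the other WQ-2101 barcodes, and 291 CPM in Vehicle members against 103 CPM in the other Vehicle barcodes. It was the only gene of 9 tested on the HIF pathway list that was called, in both libraries. Hif1a, the alpha subunit itself, had 126 CPM in WQ-2101 members against 115 CPM in the other WQ-2101 barcodes, and 98.8 CPM in Vehicle members against 109 CPM in the other Vehicle barcodes. Its level thus differed little between members and the other barcodes. Its partner Arnt had log2 ratios of 0.24 in WQ-2101 and 0.39 in Vehicle, and Vhl 0.28 and 0.49. Epas1, the HIF2 alpha subunit, gave 1 UMI in WQ-2101 members and 0 in Vehicle members. Among 13 histone demethylases and related oxygen-using enzymes, Kdm3a, Kdm4b, Kdm5b and Jmjd6 were called higher in each library and 0 lower. Thinned, 2 were called higher in WQ-2101, against 3 higher and 1 lower in Vehicle. Kdm4b had log2 ratios of 0.89 in WQ-2101 and 0.79 in Vehicle, and Kdm3a 0.61 and 0.82.

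Vegfa, the main angiogenic factor, had 286 CPM in WQ-2101 members against 168 CPM in the other WQ-2101 barcodes, and 260.4 CPM in Vehicle members against 145 CPM in the other Vehicle barcodes. It was the only one of 6 tested angiogenic factors called higher, and Pdgfb, a growth factor for pericytes, was called lower in Vehicle members at -0.63. For Vegfa, leukocyte barcodes had 212 CPM in WQ-2101 and 149 CPM in Vehicle. Higd1a, a small protein of the inner mitochondrial membrane, had 648 CPM in WQ-2101 members against 284 CPM in the other WQ-2101 barcodes, and 680.2 CPM in Vehicle members against 182 CPM in the other Vehicle barcodes. Bnip3l, a relative of Bnip3 with the same role, had log2 ratios of 0.88 in WQ-2101 and 1.11 in Vehicle, and Ddit4, an inhibitor of mTORC1, 0.82 and 1.31. Hilpda, which keeps lipid droplets from being broken down, gave 0.86 and 1.32.

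Hypoxia genes under the minimum of 10 CPM were not compared but can be read as counts. Car9, the carbonic anhydrase widely used as a hypoxia marker, had 159 UMIs in WQ-2101 members (13.9 CPM against 2.55 in the other barcodes) and 33 UMIs in Vehicle members (11.6 CPM against 1.36). Adm, the vessel peptide adrenomedullin, had 38 UMIs (3.32 CPM against 0.639) in WQ-2101 and 35 UMIs (12.3 CPM against 0.302) in Vehicle. Both were higher in members. A single barcode held 8 of the 35 Adm UMIs in Vehicle members. Pfkfb3 and Pfkfb4, activators of glycolysis that are often hypoxia-induced, were below the minimum as well. Pfkfb3 had 3.75 CPM in WQ-2101 members against 4.83 CPM in the other WQ-2101 barcodes, and 7.76 CPM in Vehicle members against 4.93 CPM in the other Vehicle barcodes. Pfkfb4 had 4.45 against 5.86 CPM in WQ-2101 and 11.3 against 7.52 CPM in Vehicle, so for both genes the libraries pointed in opposite directions. Ppp1r3c, a glycogen targeting subunit, had 0 UMIs in members of either library.

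Over all tested genes, 81 were called higher in members in each of the 2 libraries (0.949%) and 158 lower (1.85%). The 15 with the highest ratio in the library nearer to 0 held 7 of the hypoxia genes above (Ero1l, Slc2a1, Hmox1, P4ha2, Egln1, Higd1a and Plod2). The other 8 were Ankrd44, Mt1, Mt2, Prelid2, Clybl, Itpk1, Appl2 and Prdm1. Prdm1 passed the minimum of 10 CPM only through its level in members. Ankrd44, a subunit of protein phosphatase 6, had 269 CPM in WQ-2101 members against 80.4 CPM in the other WQ-2101 barcodes, and 297 CPM in Vehicle members against 82.7 CPM in the other Vehicle barcodes. It was close to level between the libraries on both sides. Mt1, a metallothionein that binds zinc and copper, had 7265 CPM in WQ-2101 members against 2992 CPM in the other WQ-2101 barcodes, and 5937 CPM in Vehicle members against 1523 CPM in the other Vehicle barcodes. Its partner Mt2 had 1843 CPM in WQ-2101 members against 759 CPM in the other WQ-2101 barcodes, and 1624 CPM in Vehicle members against 457 CPM in the other Vehicle barcodes. Both were higher under WQ-2101 on each side.

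Hmox1, which breaks down heme, had 41.2 CPM in WQ-2101 members against 13.4 CPM in the other WQ-2101 barcodes, and 72 CPM in Vehicle members against 12.4 CPM in the other Vehicle barcodes. Between members of the libraries, it was 1 of 3 hypoxia genes called lower in WQ-2101, at a log2 ratio of -0.74. A single WQ-2101 member held 120 of its 472 UMIs in that library. Without that barcode's UMIs the level was 30.7 CPM in WQ-2101 members, and without the highest Vehicle barcode it was 61.0 CPM. Prdm1, the transcriptional repressor Blimp-1, had 22.3 CPM in WQ-2101 members against 8.26 CPM in the other WQ-2101 barcodes, and 29.3 CPM in Vehicle members against 6.12 CPM in the other Vehicle barcodes. Clybl, a mitochondrial lyase, Prelid2, of a lipid transfer family, Itpk1, an inositol phosphate kinase, and Appl2, an endosomal adaptor, had log2 ratios between 1.06 and 1.55 over both libraries.

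Most genes of oxidative metabolism lay a little lower in members than in the others, though most were not called. The 27 nuclear genes of the respiratory chain had a median of -0.35 in WQ-2101 and -0.34 in Vehicle. Only 1 of the 27 lay above 0 in each library. Of the 27, 2 were called lower in WQ-2101 and 8 in Vehicle, and 0 higher. Of all tested genes, 2.34% were called lower in WQ-2101 and 6.23% in Vehicle. Thinned to 3000 UMIs per barcode, 1 was called lower in WQ-2101 and 4 in Vehicle. Ndufa4, a subunit of cytochrome oxidase, had 139 CPM in WQ-2101 members against 218 CPM in the other WQ-2101 barcodes, and 158 CPM in Vehicle members against 265 CPM in the other Vehicle barcodes. Atp5g1, a ring subunit of ATP synthase, had log2 ratios of -0.64 in WQ-2101 and -0.59 in Vehicle. Of 13 genes on the mitochondrial genome, 2 were called lower in WQ-2101 and 4 in Vehicle, with mt-Nd1 at -0.61 and -0.93. Thinned, 0 were called lower in WQ-2101 and 5 in Vehicle. The gate caps mitochondrial UMIs at 15%, so it bounds these genes. Pyruvate and TCA cycle genes had medians of -0.16 and -0.22, with Idh3a, an isocitrate dehydrogenase subunit, and Sdhb, a subunit of succinate dehydrogenase, called lower in Vehicle alone.

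Many genes of division and replication were called lower in Vehicle members, and fewer in WQ-2101 members. Calls were also more frequent in Vehicle over all tested genes, with 6.23% called lower against 2.34% in WQ-2101, and 2.18% called higher against 1.17%. These shares also stand beside the counts of members over others in the lists that follow. The pooled cut took 3.39% of gated Vehicle and 11.6% of gated WQ-2101 barcodes. The median score of the others was 0.346 in Vehicle and 0.491 in WQ-2101, while members scored alike. Members and others thus lay farther apart in score in Vehicle. How far this shaped differences between the libraries in members over others was not tested. Of 23 mitosis genes, 8 were called lower in WQ-2101 members and 17 in Vehicle members, and 0 higher, with medians of -0.55 and -0.69. Thinned, 3 were called lower in WQ-2101 and 14 in Vehicle. Between members of the libraries, 0 mitosis genes were called, at a median of 0.21, but thinned 8 were called higher in WQ-2101, at 0.54. Over all tested genes, 1.5% were called higher in WQ-2101 members on all UMIs. Thinning raised that count over all genes as well, as given in the last section. Plk1, a mitotic kinase, had 18.8 CPM in WQ-2101 members against 42.6 CPM in the other WQ-2101 barcodes, and 17.3 CPM in Vehicle members against 45.4 CPM in the other Vehicle barcodes. Birc5, the survivin of the chromosomal passenger complex, had 104 CPM in WQ-2101 members against 178 CPM in the other WQ-2101 barcodes, and 103 CPM in Vehicle members against 190.1 CPM in the other Vehicle barcodes. Mki67, the proliferation marker Ki-67, had 176 CPM in WQ-2101 members against 214 CPM in the other WQ-2101 barcodes, and 132 CPM in Vehicle members against 216 CPM in the other Vehicle barcodes, so it lay nearer to the others in WQ-2101 than in Vehicle. Of 21 DNA replication genes, 5 were called lower in WQ-2101 and 15 in Vehicle, with medians of -0.48 and -0.66. Thinned, 3 were called lower in WQ-2101 and 12 in Vehicle. Rrm2, a subunit of ribonucleotide reductase, had log2 ratios of -0.67 and -0.88. Tk1, thymidine kinase, had -0.95 and -1.19.

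The shares of barcodes with a high division score were counted as well. Among gated barcodes thinned to 3000 UMIs, the top 8% by a mitosis score held 4.86% of WQ-2101 members (3.53 to 6.51) and 5.61% of Vehicle members (2.83 to 9.82). It held 7.70% and 8.93% of the other barcodes. The top 8% by a replication score held 2.89% of WQ-2101 members and 4.59% of Vehicle members, against 6.76% and 10.4% of the others. Only the Vehicle mitosis intervals overlapped (8.20 to 9.71 in the others).

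Cholesterol synthesis gave the lowest median of the lists, -0.60 in WQ-2101 and -0.89 in Vehicle. Of 20 genes, 11 were called lower in WQ-2101 members and 16 in Vehicle members, and 0 higher. Thinned, 5 were called lower in WQ-2101 and 8 in Vehicle. The medians were then -0.41 and -0.52, and the Vehicle one lay above those of mitosis (-0.72) and DNA replication (-0.62). Fdps, which makes farnesyl diphosphate, had 199 CPM in WQ-2101 members against 362 CPM in the other WQ-2101 barcodes, and 138 CPM in Vehicle members against 352 CPM in the other Vehicle barcodes. Idi1, which isomerises isopentenyl diphosphate, had log2 ratios of -0.77 and -1.22. Several steps of this pathway use oxygen. The 15 genes with the lowest ratios over both libraries also included Tmem97, a sterol-regulated membrane protein, and Elovl6, a fatty acid elongase, at -1.01 in WQ-2101 and -1.31 in Vehicle.

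Others of those 15 were Nppb, Pimreg, Plk1, Dctpp1, Cxcl9, Tk1, Pop1, Rangrf, Cdca3, Cdc20, Gpatch4 and Cdkn3. Nppb, the B-type natriuretic peptide, was lowest with 32.9 CPM in WQ-2101 members against 75.9 CPM in the other WQ-2101 barcodes, and 24.7 CPM in Vehicle members against 58.3 CPM in the other Vehicle barcodes. Cdc20, Cdca3, Cdkn3, Pimreg and Plk1 act in mitosis, Dctpp1 and Tk1 in the handling of DNA precursors, and Pop1 in RNase P. Their log2 ratios lay between -1.45 (Pimreg, Vehicle) and -0.87 (Cdkn3, WQ-2101). Cxcl9, a chemokine induced by interferon gamma, had 15.9 CPM in WQ-2101 members against 35.8 CPM in the other WQ-2101 barcodes, and 3.53 CPM in Vehicle members against 16.4 CPM in the other Vehicle barcodes, and the Vehicle members held 10 UMIs of it in all.

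Serine and one-carbon genes, the pathway of the drug's target, had median log2 ratios of members over others of -0.43 in WQ-2101 and -0.41 in Vehicle. Phgdh had 201 CPM in WQ-2101 members against 276 CPM in the other WQ-2101 barcodes, and 221 CPM in Vehicle members against 294 CPM in the other Vehicle barcodes. Psat1 and Psph, the next enzymes of serine synthesis, had log2 ratios of -0.51 and -0.43 in WQ-2101 and -0.41 and -0.40 in Vehicle. None of the 3 was called. Of 17 tested genes, 3 were called lower in WQ-2101 (Gcsh, Shmt1 and Tyms), against 7 lower and 2 higher in Vehicle. Thinned, 1 was called lower in WQ-2101, against 4 lower and 1 higher in Vehicle, where the median was -0.20. The 2 higher in Vehicle were Aldh1l2, a mitochondrial folate dehydrogenase, and Slc1a4, a transporter of serine and alanine, at 0.66 and 0.63. Thinned, Aldh1l2 was at -0.11 there. Between members of the libraries, the list's median was 0.08 and 0 genes were called.

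Stress lists were less uniform. Of 24 tested targets of ATF4, the factor of the amino acid response, 1 was called higher in WQ-2101 members (Ddit4) and 7 in Vehicle members. Ddit3, the stress factor CHOP, had 116 CPM in WQ-2101 members against 82.3 CPM in the other WQ-2101 barcodes, and 144 CPM in Vehicle members against 62.3 CPM in the other Vehicle barcodes. Of 11 heat shock genes, 2 were called higher in WQ-2101 and 3 in Vehicle, with Hspa1b, an inducible HSP70, at 0.66 and 1.49. Thinned, 0 were called in WQ-2101 and 3 in Vehicle. Among barcodes thinned to 3000 UMIs, the top 8% by heat shock held 18.1% of WQ-2101 members (15.5 to 20.8) and 15.8% of Vehicle members (11.0 to 21.7), against 10.1% and 3.71% of the others. Pmaip1, the p53 target Noxa, was called higher in both libraries at 0.71 and 1.13. For 17 genes of the unfolded protein response, the medians were -0.14 and -0.04, although Ero1l, an enzyme of the same compartment, led the hypoxia genes. Ribosomal protein genes had 0 of 19 called.

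**Figure D3:**
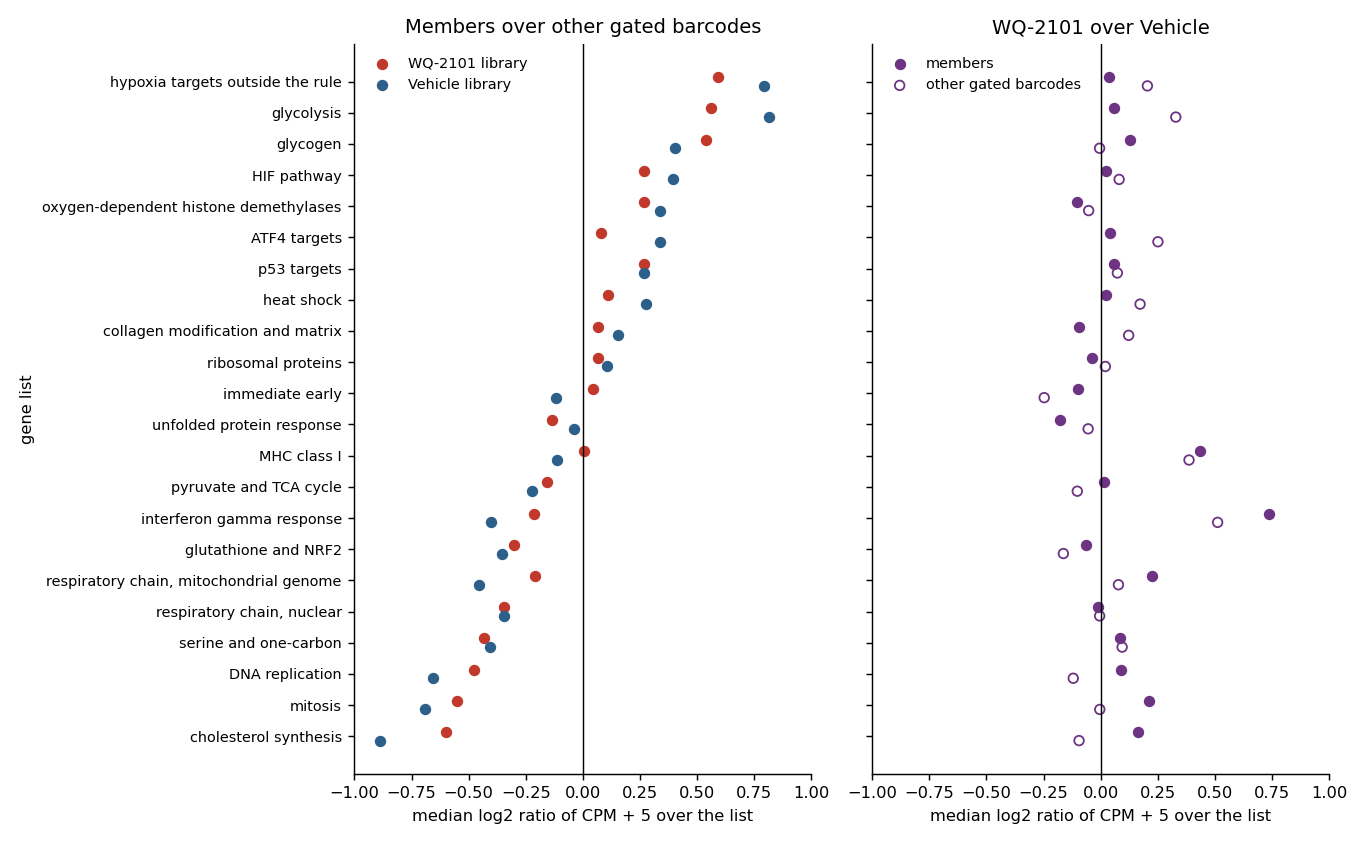
The left panel plots the median log2 ratio of CPM + 5 over each gene list for members over the other gated barcodes, in the WQ-2101 and the Vehicle library; the right panel plots the median for WQ-2101 over Vehicle, in members and in the other gated barcodes. Hypoxia and glycolysis genes lie highest in the left panel and cholesterol synthesis lowest, at -0.60 and -0.89, and in the right panel the interferon gamma list lies farthest from 0, at 0.74 in members and 0.51 in the others.

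Several lists moved with the score below the cut as well, though heat shock did not. Summed over the 50 hypoxia genes outside the rule, WQ-2101 barcodes had 5923 CPM in the lowest band of the score, 6947, 7976 and 8938 CPM in the next bands and 10982 CPM in members. Vehicle barcodes had 5394, 6258, 7399, 8459 and 11186 CPM over the same bands. The bands, set on both libraries pooled, ended at 64, 32, 16 and 8% from the top. Cholesterol synthesis went down from 2541 to 1472 CPM over the bands of WQ-2101 and from 2704 to 1273 CPM over those of Vehicle. Mitosis genes went down over each band in WQ-2101, whereas in Vehicle they had 2054 CPM between 32 and 16% and 2182 CPM between 16 and 8%. Heat shock genes summed to 10552 CPM in the lowest band of WQ-2101, then 9814, 9669 and 9919 CPM and 9979 CPM in members. In Vehicle they had 9195, 8631, 8445, 8656 and 9516 CPM, lowest in the middle band as in WQ-2101.

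**Figure D4:**
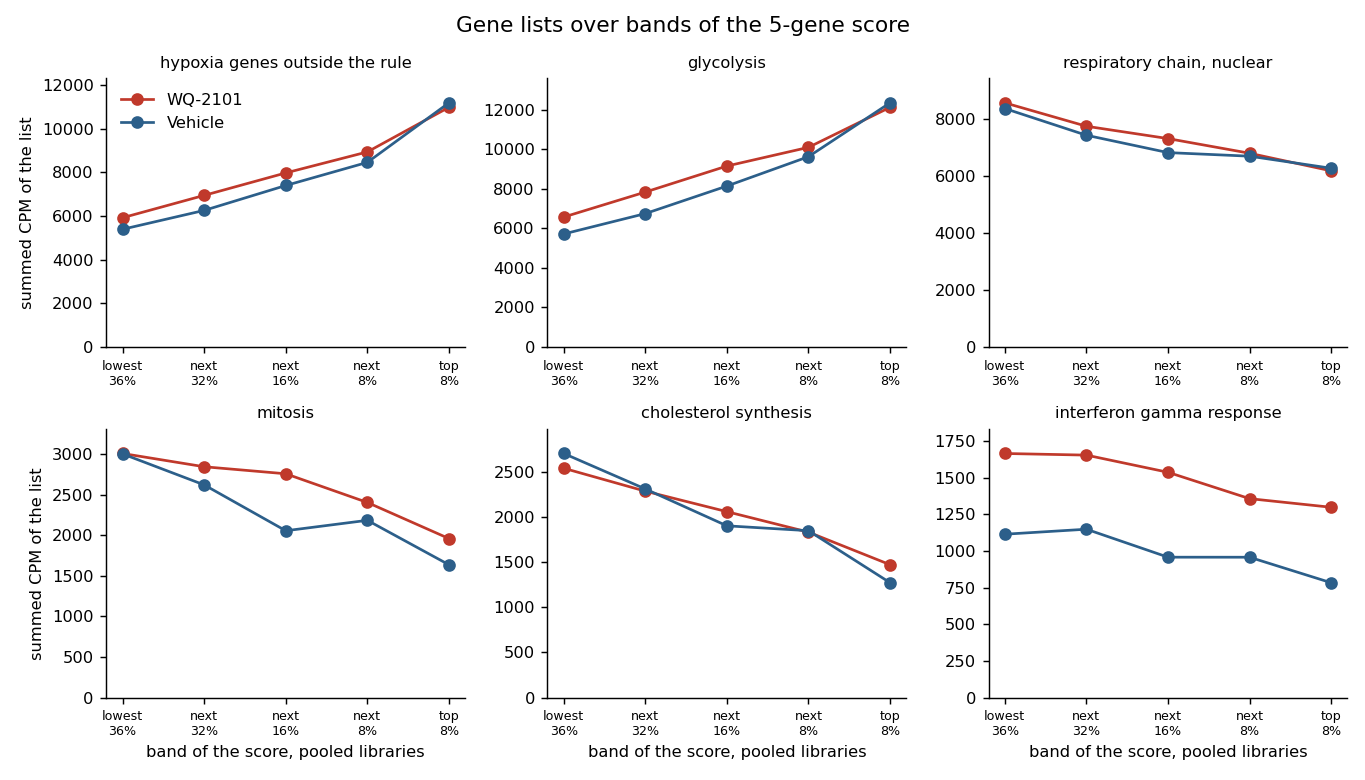
Each panel plots the summed CPM of a gene list over bands of the 5-gene score from lowest to top (the members), with a line per library. The hypoxia genes outside the rule reach 10982 CPM in WQ-2101 members and 11186 CPM in Vehicle members, and the interferon gamma list lies higher in WQ-2101 than in Vehicle in every band.

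With the main settings, members differed little between the libraries in the hypoxia program itself. Over the 36 tested genes outside the rule, the median log2 ratio of WQ-2101 over Vehicle members was 0.04, beside 0.01 over all tested genes. None was called higher and 3 were called lower (Angptl4, Hmox1 and Rora), where 1.5% of tested genes were called higher and 0.621% lower. In the other gated barcodes, the same list had a median of 0.20, beside -0.02 over all genes. Members were cut at the same score in both libraries, so this contrast is tied to the rule. The 2 medians were not tested against each other. Glycolysis had 0.06 in members and 0.33 in the others. Over the alternative settings, the hypoxia median in members ran from -0.08 to 0.30, and that of glycolysis from -0.05 to 0.27. The upper end for hypoxia genes lay above the 0.20 of the other barcodes under the main settings.

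Of the lists plotted, the interferon gamma response differed most between members of the libraries. Of 22 tested genes, 15 were called higher in WQ-2101 members and 0 lower, with a median of 0.74. In the other gated barcodes the median was 0.51, and 8 of the 22 were called higher and 0 lower. There 0.75% of all tested genes were called higher and 0.375% lower. On both sides, 21 of the 22 lay above 0. Gbp2, an interferon-induced GTPase, had 78.6 CPM in WQ-2101 members against 28.2 CPM in Vehicle members, and 98.4 against 56.2 CPM in the other barcodes. Irf1, a transcription factor induced by interferon gamma, had 163 against 97.0 CPM in members. Psmb8, Psmb9, Tap1 and Tapbp, which prepare and load peptides for MHC class I, were called as well, 4 of 9 tested on that list, at log2 ratios of 0.97, 0.97, 0.76 and 0.69.

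Within a library, 3 of the 22 interferon gamma genes were called lower in WQ-2101 members than in the other barcodes and 6 in Vehicle members, and 0 higher. The medians were -0.22 in WQ-2101 and -0.40 in Vehicle, and -0.18 in Vehicle when thinned. Cxcl10, a chemokine for T cells, had 112 CPM in WQ-2101 members against 185 CPM in the other WQ-2101 barcodes, and 82.9 CPM in Vehicle members against 158 CPM in the other Vehicle barcodes. It was called lower in each library, as was Cxcl9. The top 8% by this list's score held 7.64% of thinned WQ-2101 members (5.96 to 9.62) and 2.55% of Vehicle members (0.833 to 5.85). It held 10.6% and 5.14% of the other barcodes. Type I interferon genes stood apart from this, with a median over 8 tested genes of 0.40 in WQ-2101 and 0.02 in Vehicle. Over the alternative settings these ran from 0.14 to 0.50 and from -0.15 to 0.31. On all UMIs, the top 8% by their score held 10.4% of WQ-2101 members (8.46 to 12.6) and 10.7% of Vehicle members (6.76 to 15.9). It held 7.79% of the others in each library (7.15 to 8.46 in WQ-2101 and 7.10 to 8.52 in Vehicle). Thinned, it held 11.7% of WQ-2101 members (9.62 to 14.0) against 9.93% of the others (9.21 to 10.7). In Vehicle it held 7.65% (4.35 to 12.3) against 5.17% (4.61 to 5.79), so the thinned intervals overlapped in both libraries. Ifit3 was called higher in WQ-2101 members alone, at 0.87, and it passed the mean of 10 CPM only through those members. Its 213 UMIs came from 48 of 864 WQ-2101 members, and 1 of these held 34. Thinned, Ifit3 was lower in WQ-2101 than in Vehicle members, at -0.40.

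Across all genes, 128 were called higher in WQ-2101 members than in Vehicle members and 53 lower. The 10 highest with a mean of at least 20 CPM were Slc7a2, Slurp1, Gbp2, Iigp1, Eya4, Cdc42ep3, H2-Eb1, Cd74, Igtp and H2-Ab1. Slc7a2, a transporter of arginine and lysine, had 66.1 CPM in WQ-2101 members and 17.6 CPM in Vehicle members, and 77.8 against 21.4 CPM in the other barcodes, so both sides differed by the same log2 ratio of 1.65. Slurp1, a small secreted protein of the Ly6 family, had 56.6 CPM in WQ-2101 members and 17.3 CPM in Vehicle members, and a single Vehicle barcode held 22 of its 49 UMIs. Its ratio of Vehicle members over others changed sign when thinned, at -0.71. Eya4, a phosphatase and coactivator, had 39.5 CPM in WQ-2101 members and 15.5 CPM in Vehicle members, and Cdc42ep3, an effector of the GTPase CDC42, 31.4 CPM in WQ-2101 members and 12.7 CPM in Vehicle members.

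Several of these 10 are MHC class II genes. Cd74, the invariant chain, had 114 CPM in WQ-2101 members and 53.3 CPM in Vehicle members, and 173 against 67.1 CPM in the other barcodes. It and H2-Ab1 and H2-Eb1, like many interferon gamma genes, are also made by macrophages. The 15 macrophage and monocyte markers summed to 371 CPM in WQ-2101 members and 366 CPM in Vehicle members, and to 494 and 351 CPM in the other barcodes. Of these, 7 were tested. Their median log2 ratio of WQ-2101 over Vehicle was 0.19 in members, with 0 called. In the other barcodes it was 0.64, above the 0.51 of the interferon gamma list, and 4 were called higher. There 0.75% of all tested genes were called higher. The part of macrophage RNA in these differences was not tested.

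The 10 lowest in WQ-2101 over Vehicle members were Lsmem1, Mmp12, Depdc5, Serpinf1, Hist1h4i, Nfatc2, Id3, Klk8, Cp and Tex14. Lsmem1, a membrane protein, had 10.4 CPM in WQ-2101 members and 34.2 CPM in Vehicle members, and 11.0 against 29.0 CPM in the others. Serpinf1, the anti-angiogenic factor PEDF, had 27.1 CPM in WQ-2101 members and 60.3 CPM in Vehicle members. Id3, an inhibitor of basic helix-loop-helix factors, had 19.9 CPM in WQ-2101 members and 43 CPM in Vehicle members, and Nfatc2, a calcineurin-regulated factor, 37 CPM in WQ-2101 members and 77.3 CPM in Vehicle members. These were spread over many barcodes, with the highest of them holding at most 10.3% of a library's UMIs of the gene. Cp, the ferroxidase ceruloplasmin, had 15.5 CPM in WQ-2101 members and 32.5 CPM in Vehicle members, and was also higher in members than in the others of each library, at log2 ratios of 0.79 in WQ-2101 and 1.09 in Vehicle. The others had 6.89 CPM in WQ-2101 and 12.6 CPM in Vehicle, so Cp passed the mean of 10 CPM only through members.

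For Mmp12 and Depdc5, 1 barcode set the Vehicle value. Depdc5, a subunit of the GATOR1 complex that restrains mTORC1, had 21.5 CPM in WQ-2101 members and 49.4 CPM in Vehicle members. A single Vehicle barcode held 88 of its 140 UMIs, and without them the level was 18.3 CPM. Mmp12, the macrophage elastase, had 17.2 CPM in WQ-2101 members and 45.5 CPM in Vehicle members, and 102 of the 129 UMIs in Vehicle members lay in 1 barcode. Without those, Vehicle members had 9.53 CPM, under the WQ-2101 members. With a stricter Hmga2 gate, the log2 ratio of WQ-2101 over Vehicle members was 0.55 for Mmp12 and 0.14 for Depdc5. The same holds in part for Iigp1, an interferon-induced GTPase, with 52 of 101 Vehicle UMIs in 1 barcode. There the level without it was 17.3 CPM, against 83.4 CPM in WQ-2101 members.

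Tumour identity and other cell types were read from marker lists. Hmga2, which the gate uses, had 1137 CPM in WQ-2101 members against 1261 CPM in the others, and 977 CPM in Vehicle members against 1212 CPM. Of 18 CT26 markers, Krt8, Krt18, Krt7, Krt20 and Cdh17 had 0 UMIs in members of both libraries, and Epcam had 1. Krt19 had 5 UMIs in WQ-2101 members and 2 UMIs in Vehicle members. Krt14 was at 179 CPM in WQ-2101 members and 90.0 CPM in Vehicle members, against 199.8 and 88.0 CPM in the other gated barcodes. Igf2bp2 was at 202 CPM in WQ-2101 members and 200 CPM in Vehicle members, against 12.2 and 10.3 CPM in leukocyte barcodes. Of the same list, Igf2bp1, Igf2bp3, Hmga1, Krt14, Slurp1, Phgdh and Ly6a were also higher in members than in leukocyte barcodes of each library. Cd24a, Cdh1 and Epcam were lower. T cell markers summed to 6.02 CPM in WQ-2101 members and 5.29 CPM in Vehicle members, and endothelial markers to 2.53 and 2.47 CPM. Fibroblast markers summed to 331 CPM in WQ-2101 members and 495 CPM in Vehicle members. Nearly all of that sum was Dcn, the proteoglycan decorin, which the other barcodes carried at 295 and 416 CPM. The UMIs behind the sums were 11459116 in WQ-2101 members and 2834413 in Vehicle members, so the Vehicle members set the counting error of every ratio that uses them.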

How the data were processed

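Per the labels' protocols, tumours were digested with enzymes, strained, freed of red cells and captured in droplets for 3′ sequencing. The authors deposited raw UMI counts per gene and barcode, without normalisation. The file headers name Cell Ranger 7.2.0, whereas the submitters' processing notes name version 2.2.2 and GRCm38. Annotation, intron reads and any correction for free RNA are not stated.

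Counts of symbols listed more than once were summed. UMIs of members and of other gated barcodes were summed per library and divided by their total (CPM). Genes needed a mean of 10 CPM over the 4 sums, and the 5 rule genes were left out. Members enter that mean, so a gene can pass through its level in members. Shares have Clopper-Pearson intervals, levels Poisson intervals and ratios exact conditional intervals. Cells of 1 library are not replicates, so no p-value is given. Scrublet in scanpy 1.11.5 marked 5.03% of WQ-2101 and 3.78% of Vehicle barcodes, which were left in. Named genes were the 15 highest and 15 lowest in members over others by the library nearer to 0, the 10 highest and 10 lowest between members, examples from the lists, and the HIF and serine enzymes. Some genes that the rule names are not reported here. The members and lists were chosen with earlier results of these data known. Coordinates are GENCODE vM21 (GRCm38). Python 3.11.15, numpy 2.4.6, scipy 1.17.1 and pandas 2.3.3 were used.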

Additional observations from a re-analysis of the deposited data

Results flagged for a closer look

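Mmp12 was flagged because WQ-2101 and Vehicle differed in opposite directions in members and in the other gated barcodes. The log2 ratio of WQ-2101 over Vehicle was -1.19 in members (17.2 against 45.5 CPM) and 0.68 in the other barcodes (20.1 against 10.7 CPM). The difference between these ratios was not tested. In Vehicle members, 102 of 129 UMIs (79.1%) lay in 1 barcode, and without them the level was 9.53 CPM.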

How the results depend on the processing

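The ratio of member shares lay above 1 under every alternative that left the split free, between 2.78 (thinned) and 3.71 (score without Bnip3). It moved to 2.78 when thinned and to 2.90 with the top 16% as members. With each barcode thinned to 3000 UMIs, 39 genes were higher and 63 lower in members in both libraries, and 472 higher and 313 lower in WQ-2101 members. The thinned sums hold fewer UMIs and come from members chosen again. With the top 4%, 250 were lower in members, and 348 higher and 134 lower in WQ-2101 members. With the top 16%, 51 were higher and 45 lower in members, and 65 higher in WQ-2101 members. The count of genes lower in members was 68 without Bnip3 in the score, 82 without Ndrg1 and 85 with the others weighted to the members' UMI deciles. A pseudocount of 1 CPM gave 252 lower in members, and 256 higher and 96 lower in WQ-2101 members. A pseudocount of 20 CPM gave 42 higher and 50 lower in members, and 22 higher and 13 lower in WQ-2101 members. A minimum of 50 CPM, which tests fewer genes, gave 15 hypoxia genes higher in Vehicle members, 44 higher and 78 lower in members, and 27 higher and 13 lower in WQ-2101 members. With no minimum, 222 were higher and 113 lower in WQ-2101 members. Where no reason is given, the cause was not tested. The median of the hypoxia genes outside the rule stayed between 0.45 and 0.69 in WQ-2101 members over others and between 0.61 and 1.01 in Vehicle. That of the interferon gamma genes stayed between 0.52 and 0.89 in WQ-2101 over Vehicle members.

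Of 5919 values of named genes under alternatives, 4310 stayed within the counting interval of the main setting. A further 1596 left that interval with the same sign, and 13 changed sign. Thinned, Slurp1 (-0.71), Rora (-0.30), Aldh1l2 (-0.11), Ccnb1 (0.086) and Gbp3 (0.15) did so for Vehicle members over others, and Gbp3 (-0.027) and Ifit3 (-0.40) for WQ-2101 over Vehicle members. With a gate of 5 Hmga2 UMIs and 300 CPM, Mmp12 (-0.11) and Depdc5 (-0.26) did so in Vehicle members over others, and in WQ-2101 over Vehicle members at 0.55 and 0.14. Ifit3 was -0.12 there with the top 16%, and Slurp1 -0.029 in Vehicle members over others without Pdk1 in the score. No paired analysis was possible because each group has 1 library.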
